A study of Mus musculus with 6 samples.

Results

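The genes described here are the transcription factors of the endocrine lineage, taken along the cascade from Neurog3, which starts endocrine differentiation, to the factors that act in maturing hormone cells. The list named 9 genes, and a gene was measured where the array had a row annotated to that symbol alone, the brightest row being used. Of the 9, 8 were found among the 19938 genes tested, each with 1 row: Neurog3, Neurod1, Insm1, Rfx6, Nkx2-2, Pax4, Pax6 and Isl1. Fev was not analysed here. The tissue was mouse embryonic intestine at day E14.5, before villi form, from a segment about 1.5 cm anterior to the cecum, and the strain was mixed and in part C57Bl/6. One group was Klf5D/D, called Klf5-deleted here, and the other was Klf5wt/wtShhEGFP/Cre+, the control. The controls thus carried a Cre allele of the Shh locus, a gene of the gut epithelium, and the genotype label of the deleted group names no Cre allele. Each group held 3 arrays (Affymetrix Mouse Gene 1.0 ST), and each array was hybridised with RNA from a pool of 2 intestines. The comparison asks which genes depend on KLF5 when the gut epithelium matures and forms villi. Values are log2 signals normalised by the authors with RMA, and differences are Klf5-deleted minus control on that scale.

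Enteroendocrine cells are scattered hormone-producing cells of the intestinal epithelium. They arise from progenitors in which Notch signalling is low and in which the basic helix-loop-helix factor NEUROG3 is switched on for a short time. NEUROG3 activates further factors, among them NEUROD1, INSM1, PAX4 and NKX2-2, and later factors such as PAX6 and ISL1 act on hormone genes. RFX6 is placed after NEUROG3 in endocrine progenitors, and in the early embryo it is also expressed in gut endoderm before the lineage is set aside.

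KLF5 belongs to a family of zinc-finger factors that bind GC-rich and CACCC-type DNA elements, so the promoters of Neurog3 and Rfx6, the members that passed the test, are shown. They are the 250 bases before the start of each gene in RefSeq (build GRCm38.p6), both on the plus strand, with Neurog3 at chr10:62132840-62133089 and Rfx6 at chr10:51685268-51685517. Capitals mark matches to CACCC or CCGCCC on either strand, which read GGGTG and GGGCGG on the other strand.
Neurog3: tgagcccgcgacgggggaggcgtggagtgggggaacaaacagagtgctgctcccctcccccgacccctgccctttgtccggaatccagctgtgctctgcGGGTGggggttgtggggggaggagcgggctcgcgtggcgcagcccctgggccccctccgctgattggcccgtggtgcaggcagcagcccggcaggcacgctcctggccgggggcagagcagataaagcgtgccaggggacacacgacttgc
Rfx6: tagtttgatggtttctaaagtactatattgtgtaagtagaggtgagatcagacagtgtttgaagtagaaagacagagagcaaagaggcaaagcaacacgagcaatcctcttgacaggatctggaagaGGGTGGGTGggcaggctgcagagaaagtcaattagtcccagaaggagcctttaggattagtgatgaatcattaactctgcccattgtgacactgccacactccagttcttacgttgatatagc
The Neurog3 window held 1 match to CACCC and the Rfx6 window held 2, which share 1 base. Neither window held CCGCCC. The base composition differed, with 71.2% G and C for Neurog3 and 44.0% for Rfx6, against a median of 52.4% over all promoters. Of 32851 promoter windows of this length, 52.0% held CACCC and 32.7% held CCGCCC, so such matches are common. CANNTG, the E-box of basic helix-loop-helix factors, was found 1 time before Neurog3 and 0 times before Rfx6, and in 66.2% of all windows. CACNAG, the N-box of HES factors, was found 0 times before Neurog3 and 1 time before Rfx6, and in 36.7% of all windows. Promoter entries were found for 7 of the 9 listed genes. A match describes the letters in the window and does not show that a factor binds there.

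Klf5 itself was lower in every deleted array, at 10.2, 10.5 and 10.3 against 11.5, 11.7 and 11.8 in the controls, which is 39.8% of the control level (log2 difference −1.33, SE 0.08, adjusted p = 9.62e-05 with limma). The sources used here do not say which exons the deletion removes. Of all genes, 17.5% passed the threshold, a Benjamini-Hochberg adjusted p of 0.05 over 19938 genes, with 1785 higher (8.95%) and 1711 lower (8.58%). After centring each array on its median the split was 1216 higher and 1767 lower. The correlation between arrays across rows was 0.994 to 0.997 for arrays of the same group and 0.989 to 0.993 for arrays of different groups. All 10 genes of a list of intestinal epithelium markers fell, with Fabp2, Hnf4a, Lgals4 and Vil1 at −2.78, −1.97, −4.20 and −1.46, and these markers still read 8.89 to 9.34 on average in the deleted arrays against 11.04 to 11.15 in the controls. Of 19 pan-epithelial genes, 18 fell and 1 rose, with a median of −0.82. The groups also differed in sex. Xist read 5.89 to 6.47 in the deleted arrays and 11.9 to 12.6 in the controls, and the male share of each pool, from 3 Y-linked genes, was 95.02% to 103% in the deleted arrays and 0%, 47.1% and 40.8% in control replicates 1 to 3. The scale runs from 0% at the lowest array to 100% at the mean of the deleted arrays. The part of sex in the results below was not tested apart from genotype, and a fit with that share as a covariate left far fewer calls. In that fit Xist stayed called (−5.04, limma, adjusted p = 0.00689), and Eif2s3y, Uty and Kdm5d turned negative (−3.40, −3.54 and −1.73). The covariate thus did not take out sex, and a call kept or lost with it does not part sex from genotype. Klf5 stayed called in the same fit (−1.64, adjusted p = 0.033), as did 3 of the 10 intestinal epithelium markers and 1 of the 18 pan-epithelial genes that fell (Elf3, −3.12, adjusted p = 0.0168). Of the other lists described below (secretory entry and Notch, other endocrine factors, hormones and granules, family relatives, enteric neurons, enteric glia, pancreas and stomach), 0 genes passed in either direction with limma. In these bulk samples, fewer cells of a type and less RNA per cell cannot be told apart.

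Neurog3 fell and Rfx6 rose in the Klf5-deleted intestine. These were the members past the threshold, 2 of 8 against 17.5% of all genes. Neurod1, a direct NEUROG3 target, was lower in all deleted arrays but stayed just outside the threshold. Insm1, Nkx2-2, Pax4, Pax6 and Isl1 did not pass. The groups did not overlap for 4 members, Neurog3 and Neurod1 with the deleted arrays lower and Rfx6 and Isl1 with them higher. Over all genes 36% did not overlap, 20.1% with the deleted arrays higher and 15.9% with them lower. The median difference of the 8 genes was 0.006, and that of all genes was 0.021. With so few members and 1 call in each direction, the counts say little about the list as a whole, and the results lie in its single genes.

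**Figure D1:**
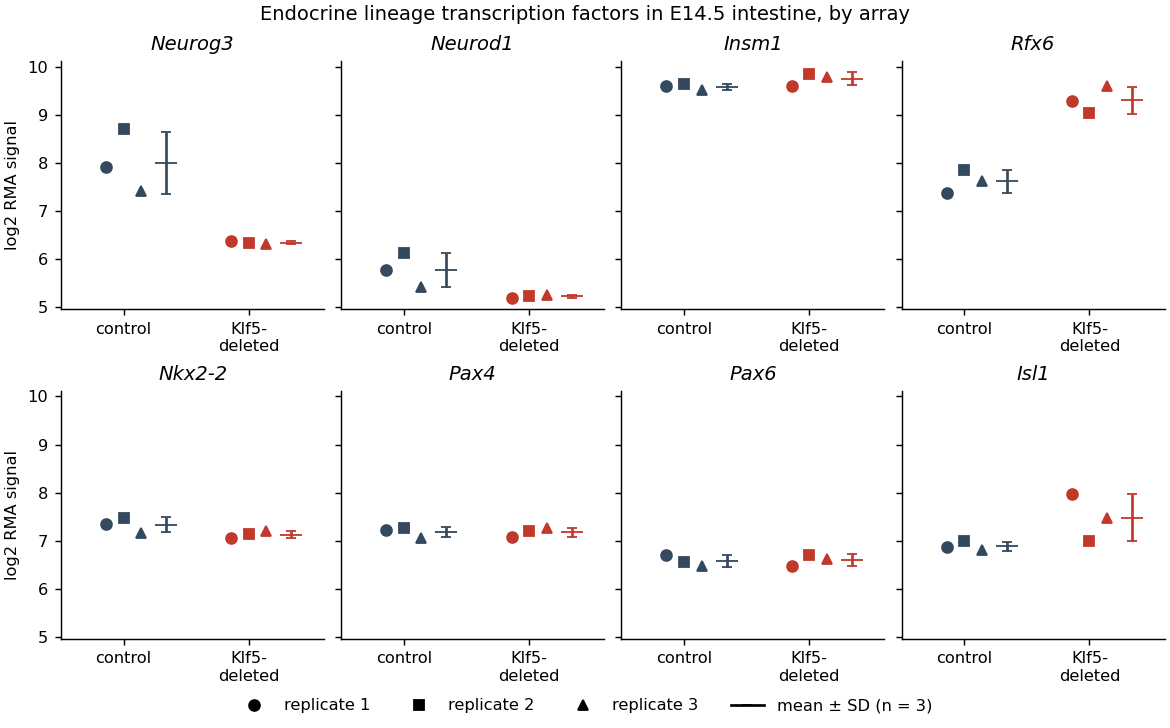
Log2 RMA signal of the 8 measured genes in each array (points, shaped by replicate number), with the mean ± SD of 3 arrays beside them, for controls (dark) and Klf5-deleted intestine (red). Neurog3 lay at 6.32 to 6.37 in the deleted arrays and at 7.41 to 8.70 in the controls, and Rfx6 lay above 9 in all deleted arrays and below 8 in all controls.

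Neurog3 (probe set 10363545), which commits progenitors to the endocrine fate, read 6.37, 6.34 and 6.32 in Klf5-deleted replicates 1 to 3. In control replicates 1 to 3 it read 7.91, 8.70 and 7.41. The deleted arrays were nearly identical and all lay below the lowest control, whereas the controls spread widely. The SD was 0.03 in the deleted arrays and 0.65 in the controls (n = 3 each), when the median SD over all genes was 0.0689 and 0.0646. Neurog3 fell by 1.66 (SE 0.28, 95% interval −2.31 to −1.01, limma, adjusted p = 0.00692). The remaining signal was 31.6% of that in the controls (interval 20.1% to 49.5%). It ranked 83rd from the lowest difference among all genes. An exact permutation test, two-sided, gave p = 0.1, and 3 arrays against 3 allow nothing smaller.

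The Neurog3 signal left in the deleted arrays was dim. A set of 1015 olfactory receptor genes, which have no known role in the gut, gives a rough reference for dim signals, with a median of 5.20, a 90th percentile of 6.52 and a 95th percentile of 6.88. Probe sets differ in how brightly they read the same amount of RNA, so the reference places a signal and does not rank amounts of RNA. A signal above its 95th percentile does not by itself show that a gene was expressed. The deleted arrays lay below the 90th percentile of that set and the controls lay above its 95th percentile. Signals near the dim end move less than the RNA does, so a fold measured against them can be understated.

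Neurod1, the helix-loop-helix factor that follows NEUROG3, read 5.20, 5.24 and 5.24 in the deleted arrays and 5.76, 6.12 and 5.42 in the controls. As for Neurog3, the deleted arrays lay close together (SD 0.03) and below every control (SD 0.35). The difference was −0.54 (SE 0.15, interval −0.90 to −0.18, adjusted p = 0.0517), or 68.7% of the control signal (interval 53.5% to 88.3%). Control replicate 3 weighed on this value: without it the difference was −0.72 and passed (adjusted p = 0.0113). It also passed after quantile normalization (−0.57, adjusted p = 0.0346) and after centring on the array median (−0.56, adjusted p = 0.0232). All 6 arrays read below the 95th percentile of the olfactory receptor set, so Neurod1 was measured at the dim end throughout.

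Insm1, a zinc-finger repressor that is used in endocrine progenitors and also in neuroblasts, read 9.61, 9.86 and 9.80 in the deleted arrays and 9.60, 9.64 and 9.52 in the controls. The groups overlapped, since deleted replicate 1 read no higher than control replicate 2. The difference was 0.17 (SE 0.07, interval −0.0001 to 0.34, adjusted p = 0.164). Without deleted replicate 1 it passed (0.24, adjusted p = 0.0375). Insm1 did not show the lower signal seen for Neurog3 in the same arrays.

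Rfx6 (probe set 10363090), a winged-helix factor needed for the formation of endocrine cells, read 9.28, 9.04 and 9.59 in the deleted arrays. In the controls it read 7.38, 7.86 and 7.63. Every deleted array lay above every control, with an SD of 0.28 and 0.24. Rfx6 rose 3.21-fold (log2 difference 1.68, SE 0.16, interval 1.31 to 2.06, adjusted p = 0.000565 with limma), the 6th highest difference of all genes. The higher differences include those of the Y-linked genes behind the male share, Eif2s3y (2.40), Uty (2.39) and Kdm5d (1.71). The exact permutation p of Rfx6 was 0.1 (two-sided), again the smallest value possible. All arrays read above the 95th percentile of the olfactory receptor set.

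Neurog3 and Rfx6 changed unequally within the same arrays. The log2 signal of Rfx6 minus that of Neurog3 was 2.91, 2.70 and 3.27 in the deleted arrays and −0.53, −0.84 and 0.22 in the controls. The absolute size of this gap depends on the probes of both genes and is not a ratio of RNA amounts. The shift was 3.35, with means of 2.96 ± 0.29 (SD, n = 3) in the deleted arrays and −0.39 ± 0.54 (SD, n = 3) in the controls, and the groups did not overlap. The shift is the sum of both genes' differences, given above, and adds no test of its own. Once the male share was added as a covariate, neither gene passed: Neurog3 was at −2.10 (adjusted p = 0.296) and Rfx6 at 1.19 (adjusted p = 0.263). In that fit 83 genes passed in all, and the median SE over genes was 0.147 against 0.0594.

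**Figure D2:**
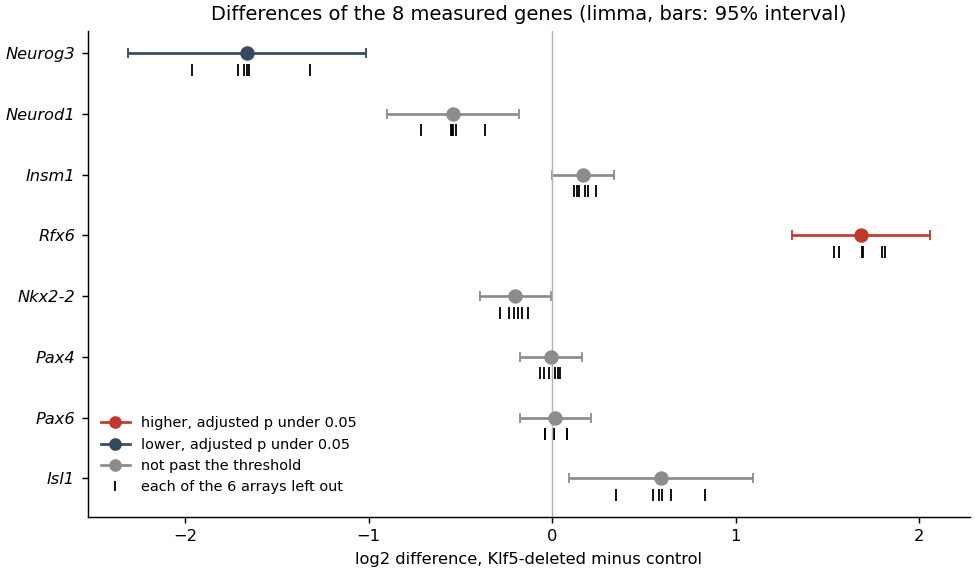
Log2 difference, Klf5-deleted minus control, of the 8 measured genes with the 95% interval of limma (circles and bars), and the differences obtained when 1 of the 6 arrays was left out (ticks). Neurog3 stayed between −1.96 and −1.32 and Rfx6 between 1.54 and 1.81 with any array left out, while the ticks of Pax4 and Pax6 lie on both sides of 0.

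Nkx2-2, a homeodomain factor that several enteroendocrine cell types need, read 7.05, 7.14 and 7.19 in the deleted arrays and 7.35, 7.47 and 7.16 in the controls. The groups overlapped at control replicate 3. The difference was −0.20 (SE 0.08, adjusted p = 0.151), and without control replicate 3 it passed (−0.29, adjusted p = 0.0448). Pax4, a paired-domain factor of early endocrine precursors, read 7.07 to 7.26 in the deleted arrays and 7.06 to 7.26 in the controls. Pax6, a paired-domain factor that acts on hormone genes, read 6.47 to 6.71 in the deleted arrays and 6.47 to 6.71 in the controls. The groups overlapped fully for both. Their differences were −0.01 (SE 0.07, interval −0.17 to 0.16) and 0.02 (SE 0.08, interval −0.18 to 0.21), so a change of 0.21 or less in size could not be told from none. For Pax6, all arrays also lay below the 95th percentile of the olfactory receptor set. Nkx2-2 and Pax4 lay little above it, with 97.0% and 96.9% of that set dimmer by mean signal.

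Isl1, a LIM-homeodomain factor of late endocrine cells that is also used in neurons and in pancreatic islets, read 7.97, 6.996 and 7.47 in the deleted arrays and 6.87, 6.99 and 6.80 in the controls. The deleted arrays spread widely (SD 0.49 against 0.10), and deleted replicate 2 lay barely above control replicate 2. The difference was 0.59 (SE 0.21, interval 0.09 to 1.09, adjusted p = 0.105). Without deleted replicate 2 it passed (0.835, adjusted p = 0.0129), and without deleted replicate 1 it was 0.35 (adjusted p = 0.138). Pancreatic genes were read beside it, since the segment could hold a trace of pancreas. Of 11 such genes, 0 passed in either direction with limma, and 0 had an unadjusted p under 0.05, which 30.6% of all genes had. The sum of their linear signals was 1644 to 2242 in the deleted arrays and 1628 to 1741 in the controls. Cpa1, a digestive enzyme gene of the exocrine pancreas that was singled out with its values known, read 9.78 in deleted replicate 1, where Isl1 was highest, and 8.35 and 8.76 in replicates 2 and 3, against 8.54 to 8.69 in the controls. Ptf1a, the defining factor of acinar cells, also singled out with its values known, read 6.31 to 6.38 in the deleted arrays and 6.29 to 6.43 in the controls. Of the rest of the list, named with its values known, Ctrb1, Gcg and Pdx1 were also highest in deleted replicate 1 among the deleted arrays. Cela1, Prss2, Ins2, Iapp and Nkx6-1 were lowest there, as was Ptf1a, and Cela3b lay between. The part of pancreatic cells in the Isl1 signal was not tested.

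**Figure D3:**
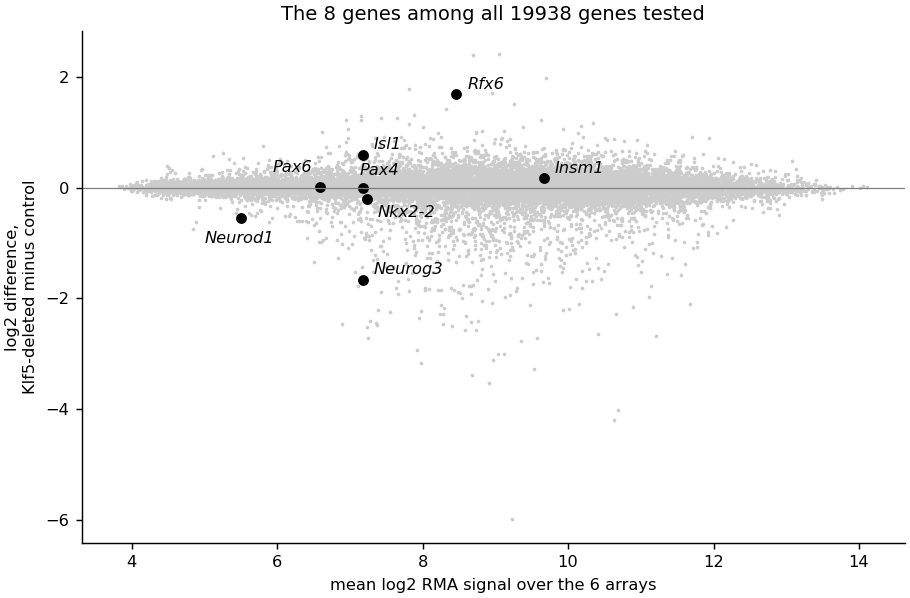
Mean log2 RMA signal over the 6 arrays (horizontal) against the log2 difference, Klf5-deleted minus control (vertical), for all 19938 genes (grey) and the 8 measured genes (black, named). Neurog3 at −1.66 and Rfx6 at 1.68 stand outside the band that holds most genes, and Pax4, Pax6 and Insm1 lie within it.

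The search for genes whose signal followed Neurog3 and Rfx6 left out predicted, clone-type and mitochondrial gene names. The closest genes had the smallest root mean square difference between deviations from each gene's own mean, over the 6 arrays. For Neurog3 they were Tff3, a trefoil peptide of goblet cells (0.27), Atoh1, the factor that opens the secretory fate (0.27), Samd9l (0.28) and Prap1 (0.28). Atoh1 read 6.60, 6.76 and 6.72 in the deleted arrays and 8.67, 8.87 and 8.34 in the controls. It was highest in control replicate 2 and lowest among controls in replicate 3, the same order as Neurog3. Atoh1 was picked here for its likeness to Neurog3 over these arrays, so the shared order follows in part from the choice. Atoh1 fell to 26.2% of the control signal (log2 difference −1.93, SE 0.13, adjusted p = 0.000115). With the male share as a covariate it was at −1.91 (adjusted p = 0.106). For Rfx6 the nearest genes were Akr1c18, a steroid-reducing enzyme gene (0.32), Ambp (0.32), the collagen prolyl hydroxylase gene P4ha3 (0.32) and the adenylate cyclase gene Adcy8 (0.33). Akr1c18, Ambp, P4ha3 and Adcy8 rose 2.46-fold, 2.15-fold, 2.34-fold and 2.39-fold, less than Rfx6. Of these 8 genes, Adcy8 alone passed with the male share as a covariate (again higher, adjusted p = 0.00689). Both sets follow mostly the split between groups, which all 6 arrays share.

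**Figure D4:**
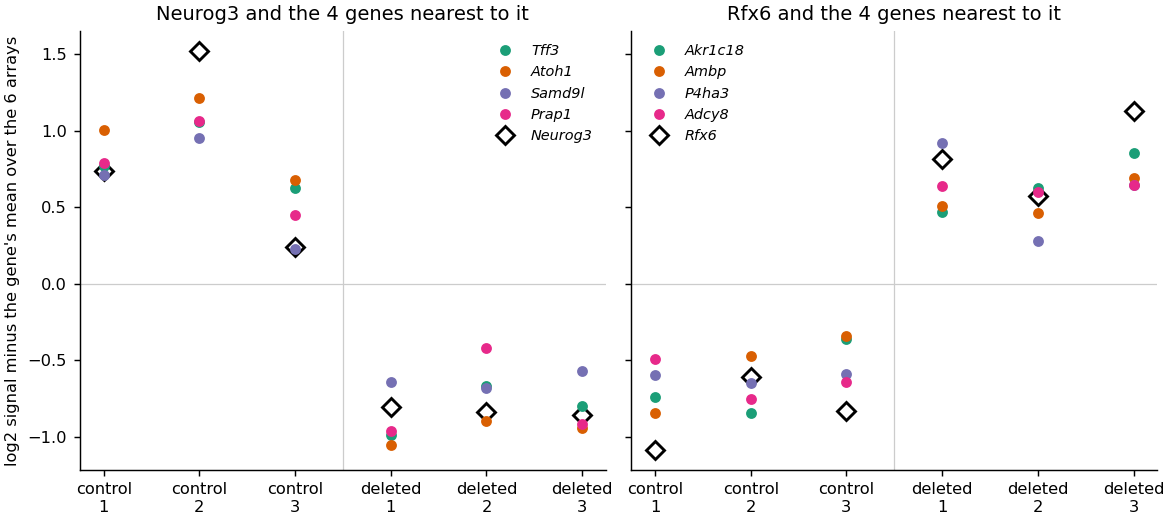
Log2 signal minus the gene's own mean over the 6 arrays, by array, for Neurog3 (left, diamonds) and Rfx6 (right, diamonds) and the 4 genes nearest to each (coloured circles). Neurog3 exceeds its 4 nearest genes in control replicate 2, and Rfx6 lies above its 4 nearest genes in deleted replicate 3.

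Upstream of the cascade, genes of secretory entry and Notch signalling changed in both directions. Of 16 such genes, 4 fell and 3 rose, 43.8% of the list against 17.5% of all genes, with a median of −0.092. Besides Atoh1, Lfng, which modifies Notch receptors, fell by 0.65 (SE 0.06), and Sox9, a progenitor factor, fell by 0.76 (SE 0.07). Notch2, a receptor gene, rose by 0.49 (SE 0.06). Hes1, the Notch effector that represses Neurog3, was at −0.09 (SE 0.05, adjusted p = 0.33), and Dll1, the ligand gene of early secretory cells, at −0.04 (SE 0.04, adjusted p = 0.604); both were singled out with their values known. Without control replicate 2 or control replicate 3, 1 gene of this list rose. Jag2 (−0.22) and Rbpj (0.18), called genes singled out with their values known, lost their calls in most fits with 1 array left out. Jag2 kept its call without deleted replicate 2 alone and Rbpj without deleted replicate 3 alone (adjusted p = 0.0513 to 0.123 in the others).

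Of 16 other factors of the endocrine lineage, 5 rose and 1 fell, 37.5% of the list against 17.5% of all genes. The median was 0.182. Mnx1, a homeodomain factor used in endocrine cells and in motor neurons, was the one that fell: it read 6.19, 6.64 and 6.29 in the deleted arrays and 7.47, 7.38 and 7.34 in the controls (log2 difference −1.02, SE 0.11, adjusted p = 0.00109). With the male share as a covariate it was at −0.89 (adjusted p = 0.283). Runx1t1 rose by 0.58 (SE 0.09), Etv1 by 0.33 (SE 0.05) and Sox4 by 0.25 (SE 0.05), and these genes are also used outside the epithelium. Sox4 missed the threshold in the fit without control replicate 2 (0.24, adjusted p = 0.0504), when 2 genes of the list rose, and 3 rose without control replicate 3. The pancreatic and duodenal factor Pdx1 (0.15, SE 0.16) and the endoderm factor Foxa2 (0.13, SE 0.06), both singled out with their values known, did not pass.

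**Figure D5:**
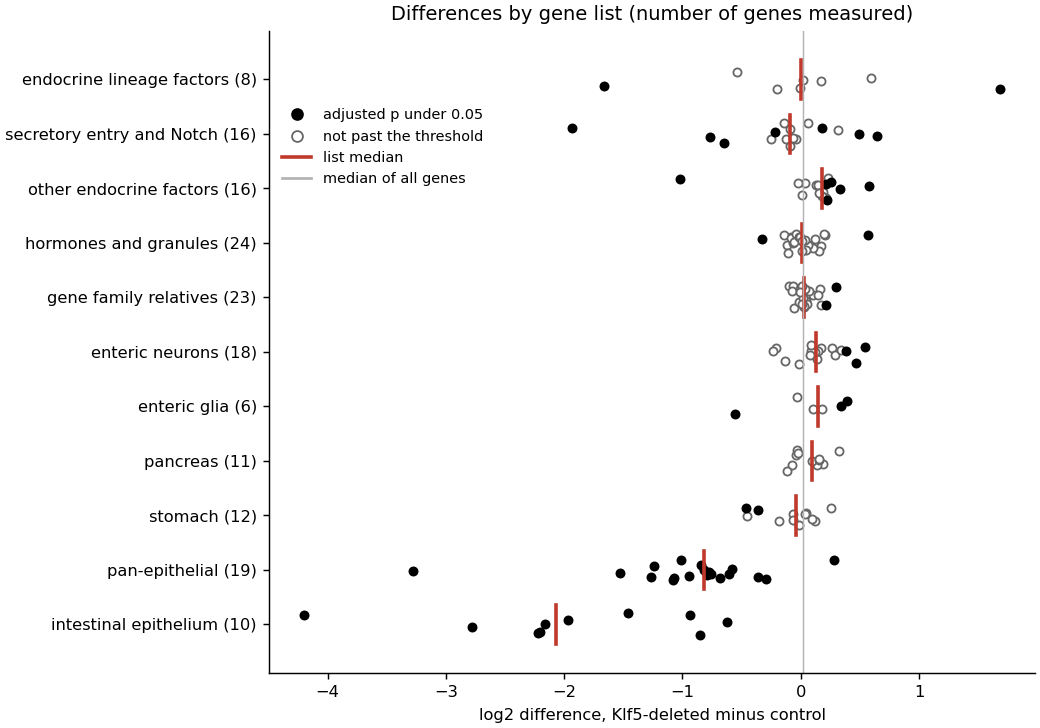
Log2 difference, Klf5-deleted minus control, of each gene (circles, filled where the adjusted p was under 0.05) by gene list, with list medians (red bars) and the median of all genes (grey line). The medians of the endocrine lineage factors (0.006) and of hormones and granules (0.009) lie near that of all genes (0.021), and those of the pan-epithelial (−0.82) and intestinal epithelium lists (−2.06) lie far below it.

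Few products of endocrine cells passed the test. Of 24 hormone and secretory granule genes, 1 rose and 1 fell, 8.33% of the list against 17.5% of all genes, with a median of 0.009. By their mean signal, 18 of the 24 lay above the 95th percentile of the olfactory receptor set. The others were measured at the dim end, where a change can be missed. The 18 ran from Scg2 (means 6.90 deleted, 6.95 control), close to that percentile, to Cpe (11.85 and 11.29). A place above it does not show that a gene was expressed. Cpe, a prohormone-processing carboxypeptidase that is also used in neurons and mesenchyme, rose by 0.57 (SE 0.08, adjusted p = 0.00353), and did not pass with the male share as a covariate (0.61, adjusted p = 0.302). Sct, the secretin gene, fell by 0.33 (SE 0.08, adjusted p = 0.0246): its signals were 7.47, 7.54 and 7.36 in the deleted arrays, below the 7.77, 7.92 and 7.67 of the controls. It no longer passed without deleted replicate 1 or 3 or control replicate 1 or 2 (−0.34 to −0.27, adjusted p = 0.0511 to 0.079). Gast (0.12, SE 0.05) and Scg5 (0.21, SE 0.09) did not pass, and Scg5 passed without deleted replicate 2 (0.30, adjusted p = 0.0255). The granule protein gene Chga, singled out with its values known, was at −0.02 (SE 0.09, interval −0.24 to 0.20).

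Relatives of the members in the same gene families were read beside them. Of 23 NEUROG, NEUROD, RFX, NKX2, PAX and ISL family genes, 2 rose and 0 fell with limma, with a median of 0.031. Called genes made up 8.7% of the list, against 17.5% of all genes. None of the list was lower at an unadjusted p under 0.05 either. Rfx3, an RFX factor of ciliated and endocrine cells, rose by 0.21 (SE 0.05, adjusted p = 0.0206), against 1.68 for Rfx6, and Isl2 rose by 0.30 (SE 0.06, adjusted p = 0.0191). The Isl2 call was lost without deleted replicate 1 or 3 or control replicate 2 or 3 (0.26 to 0.30, adjusted p = 0.0515 to 0.069). That of Rfx3 was kept without deleted replicate 3 and lost without any other array (0.19 to 0.23, adjusted p = 0.0517 to 0.0644). Nkx2-3 (0.16, SE 0.05) and Rfx2 (0.17, SE 0.06) did not pass. Neurog1 and Neurog2, the neural relatives of Neurog3, singled out with their values known, were at 0.02 (SE 0.08) and −0.01 (SE 0.07).

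Several members are also used in neurons, so markers of the enteric nervous system were read beside them. Of 18 enteric neuron genes, 3 rose and 0 fell with limma, with a median of 0.13. That is 16.7% of the list, against 17.5% of all genes. At an unadjusted p under 0.05, which 30.6% of all genes had, 7 genes of the list were higher and 1 was lower. Hand2 rose by 0.38 (SE 0.05), Dbh by 0.54 (SE 0.14) and Th by 0.47 (SE 0.12). Without deleted replicate 1, control replicate 1 or control replicate 2, 1 gene of the list rose. The call of Dbh was kept without control replicate 3 and lost without any other array (0.44 to 0.59, adjusted p = 0.0555 to 0.0976). That of Th was kept without deleted replicate 2 or 3 and lost without any other array (0.42 to 0.51, adjusted p = 0.0586 to 0.126). The sum of the linear signals of the list was 23800.5 to 27492 in the deleted arrays and 22272 to 23295 in the controls. Of 6 enteric glia genes, 2 rose and 1 fell: Foxd3 rose by 0.34 (SE 0.04), Sox10 rose by 0.39 (SE 0.07), and Erbb3, a receptor gene that epithelium also uses, fell by 0.56 (SE 0.09). Their sum was 12934 to 15029 in the deleted arrays and 13193 to 14172 in the controls. Of 12 stomach genes, 2 fell and 0 rose with limma (16.7% of the list), and 1 was higher at an unadjusted p under 0.05. Pgc was at −0.36 (SE 0.08) and Tff1 at −0.46 (SE 0.12). The calls of both were lost in each fit without deleted replicate 3, control replicate 1 or control replicate 3 (adjusted p = 0.0586 to 0.0993), and 1 of them was lost without deleted replicate 1 (Tff1, −0.41, adjusted p = 0.0864) or 2 (Pgc, −0.30, adjusted p = 0.0691). Without deleted replicate 1, Sox2 passed as higher (0.39, adjusted p = 0.00944). The sum of the stomach list was 2310 to 2664 in the deleted arrays and 2443 to 2737 in the controls.

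The fall of Neurog3 and Atoh1 came with a lower signal of most epithelial genes listed. In the pan-epithelial list, Elf3 fell by 3.28, Krt19 by 1.52, Ocln by 1.08 and Spint2 by 0.85. The gene of that list that rose was Prom1 (0.28, SE 0.06), singled out with its values known, and it did not pass without control replicate 2 (0.27, adjusted p = 0.0529). The sum of the linear signals of the list was 23503 to 27494 in the deleted arrays and 47449 to 48956 in the controls. The median difference of this list was −0.82, beside −1.66 for Neurog3, −0.54 for Neurod1 and 1.68 for Rfx6. The sizes are not ranked, since Neurog3 in the deleted arrays and Neurod1 in all arrays were read at the dim end. The part of the amount of epithelium in these differences was not tested.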

How the data were processed

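The submitters' processing notes name RMA and Affymetrix Expression Console 1.1 for the deposited log2 signals. RMA equalises the distributions of the probe values of the arrays and so can remove a shift shared by most genes. The medians of the deposited rows still ran from 7.81 (control replicate 3) to 7.89 (deleted replicate 3). The sources used here name no genome build or array annotation. Arrays have no read depth, and their number limits the precision.

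Of 35557 rows, 21789 had 1 gene symbol in the platform annotation. Of these, 21698 were given the RefSeq symbol (GRCm38.p6) of their gene ID, whether or not that changed the name. The brightest row per gene was used, with no filter on level. Groups came from the sample titles and were tested in R 4.3.3 by limma 3.58.1 (lmFit and eBayes, Benjamini-Hochberg adjustment over 19938 genes, threshold 0.05), which was tested on simulated data. The members, lists and alternatives were chosen with earlier results of these data known. Named were Klf5, the members, up to 4 genes of each list with the smallest p, and the 4 genes nearest to Neurog3 and to Rfx6. Other genes are marked as singled out with their values known. No label says that the pools are from separate litters, so the p values rest on the spread between pools, which may be technical. The male share rests on Eif2s3y, Kdm5d and Uty on the linear scale. Alternatives were each array left out, the replicate block, quantile normalization, centring, 2 filters on dim genes, an intensity trend with robust variance, weights for arrays, averaged probe sets and the male share as covariate.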

Additional observations from a re-analysis of the deposited data

How the results depend on the processing

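Neurog3 and Rfx6 kept their direction in all 14 alternatives in which they were tested and their call in 13. The replicate block, the filter on the lowest 25% of genes, the intensity trend and averaged probe sets could not change these differences. Those settings say nothing about direction. Neurog3 and Rfx6 were both dropped by the filter that left out the lowest 50% of genes. The exception in calls was the male share as covariate, with Neurog3 at −2.10 and Rfx6 at 1.19, where 0 members passed in either direction and 83 genes passed in all. With 1 array left out, Neurog3 ranged from −1.96 to −1.32, Rfx6 from 1.54 to 1.81, the shift between Rfx6 and Neurog3 from 3.12 to 3.65, and the genes past the threshold from 2000 (without control replicate 2) to 2757, against 3496. Members called lower then numbered 1 to 3 and members called higher 1 to 2. Quantile normalization and centring each gave 2 members lower, and with the lowest 50% of genes left out 0 passed in either direction, since Neurog3 and Rfx6 were not tested there. Pax4 changed sign, at −0.0661 to 0.0453 with 1 array left out, 0.0371 with array weights and 0.10 with the male share. Pax6 changed sign, at −0.0394 to 0.0818 with 1 array left out, −0.0122 after quantile normalization and −0.0039 after centring. With the replicate number as a block, 2008 genes passed, and Neurog3 (adjusted p = 0.0145) and Rfx6 (adjusted p = 0.00468) kept their calls. Same-numbered arrays did not deviate together (correlations −0.145, −0.274 and −0.031 across genes), against −0.057 to 0.216 for arrays of different numbers. These values give no sign of pairing by number. With 3 arrays per group they cannot settle whether the samples were paired. The list counts were also run under these alternatives, chosen after seeing the data. Dim signals limit Neurod1 and Pax6 in all arrays and Neurog3 in the deleted arrays. Isl1 also read below the 95th percentile of the olfactory receptor set in control replicates 1 and 3 (6.87 and 6.80). Nkx2-2 and Pax4 lay little above it. Except where construction shows it, the cause of these moves was not tested.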

Other observations

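Among the controls, replicate 2 read highest and replicate 3 lowest for 6 of the 8 measured genes (Neurog3, Neurod1, Insm1, Nkx2-2, Pax4 and Isl1), an order that 11.2% of all genes had. The median over all rows was 7.87 in control replicates 1 and 2 and 7.81 in replicate 3, and the male share was 0% in replicate 1, 47.1% in replicate 2 and 40.8% in replicate 3. The order was noticed in the data, the 6 genes share the same arrays, and it was not tested.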
